A study of Mus musculus with 93 samples.

Results

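The high mobility group (HMG) genes examined here were Hmgb1, Hmgb2, Hmgb3, Hmgn1, Hmgn2, Hmgn3, Hmgn5, Hmga1 and Hmga2 in mouse cerebral cortex. These 9 of the 24528 genes in each expression table were taken by symbol. The set was chosen by family and by measured genotype differences, since Hmgb3 was among the genes lowered most in mutants. This was seen at 12 months, so the members' genotype differences at that age are described below without a test. The choice named no age, so genotype tests of Hmgb3 at PND 5 and 18 months may not be independent of it. All 9 passed the filter on low values in both tables, which left 16764 genes tested at PND 5 and 12 months and 16951 at 18 months.

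Bulk polyA RNA-seq was carried out on one cortical hemisphere from wild-type (WT) mice and from mice carrying a germline heterozygous loss-of-function allele of the chromatin remodeler Chd8 (Chd8V986*/+, called mutants below), so the allele was present in every cell and no Cre driver was involved. Sires were Chd8V986*/+ and dams were C57BL/6J WT. Dams received peanut butter with oil or with deltamethrin (DM, a pyrethroid insecticide) at 3 mg/kg every 3 days from the start of gestation, until PND 22 for mice kept to 12 months and until PND 5 for pups collected on that day. The PND 5 groups held both sexes, with 12 oil-exposed WT, 10 oil-exposed mutants, 12 DM-exposed WT and 10 DM-exposed mutants from 13 litters. The 12 month old males comprised 9 oil-exposed WT, 9 oil-exposed mutants, 10 DM-exposed WT and 10 DM-exposed mutants from 19 litters, and the untreated 18 month old males comprised 6 WT and 5 mutants. At most one animal of a sex and genotype was taken from a litter, except that an 18 month old litter gave a pair of WT males.

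HMG proteins are abundant non-histone components of chromatin that fall into 3 families. HMGB proteins carry paired HMG boxes that bind the minor groove and bend DNA, HMGN proteins bind nucleosomes and loosen the compaction brought by linker histone, and HMGA proteins bind AT-rich DNA through short AT hooks. Many of them are known for high expression in embryonic and dividing tissue and for a decline as tissues mature, and Hmgb2 and Hmga2 are known from mouse neural stem cells.

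Chd8, the gene carrying the mutation, was lower in mutants by 0.58 on the log2 scale (SE 0.12) at PND 5 after oil, by 0.46 (SE 0.12) at PND 5 after DM, by 0.61 (SE 0.13) and 0.69 (SE 0.12) at 12 months after oil and DM, and by 0.51 (SE 0.034) at 18 months. It was lower in the mutant of 42 of 43 same-sex littermate pairs. The exception was the female pair of the DM-exposed PND 5 litter B, where the library labelled mutant stood 0.67 above the library labelled WT for Chd8. Both libraries therefore go against their labels for the targeted gene. They were kept as labelled, and PND 5 results that include them are given also without them where these are members' main values. As a mean over the 7 DM-exposed PND 5 litters, Chd8 was at -0.49 with the pair and -0.59 without it. All 8 listed markers of cortical excitatory neurons passed the filter.

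The deposited values are variance-stabilized read counts on a log2 scale from which the authors had removed batch, sex, dissector and litter numbers. Adjusted levels below are those values corrected for the same terms with the groups kept in the model, and they are comparable between groups but not between genes or between tables. The tables carry no counts, so the depth behind each value is unknown, and a sex effect cannot be read from them.

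The members lie on separate chromosomes except for the X-linked Hmgb3 and Hmgn5. In mm10, Hmgb3 occupies chrX:71555918-71560676 on the plus strand, Hmgn5 chrX:109004534-109013404 on the minus strand, and Hmgb2 chr8:57511907-57515999 on the plus strand. The 250 bases before the start of Hmgb3 and Hmgb2 are shown because these genes had the steepest falls with age and lay on opposite sides of WT in 12 month old mutants. Both are RefSeq sequences of GRCm38.p6 on the plus strand, chrX:71555667-71555916 for Hmgb3 and chr8:57511593-57511842 for Hmgb2. Capitals mark CCAAT, the box bound by NF-Y, or its reverse complement.
Hmgb3: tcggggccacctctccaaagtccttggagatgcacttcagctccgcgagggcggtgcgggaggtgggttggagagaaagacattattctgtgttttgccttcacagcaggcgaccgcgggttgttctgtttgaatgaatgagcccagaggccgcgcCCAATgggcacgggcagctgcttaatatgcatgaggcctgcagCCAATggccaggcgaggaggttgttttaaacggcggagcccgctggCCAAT
Hmgb2: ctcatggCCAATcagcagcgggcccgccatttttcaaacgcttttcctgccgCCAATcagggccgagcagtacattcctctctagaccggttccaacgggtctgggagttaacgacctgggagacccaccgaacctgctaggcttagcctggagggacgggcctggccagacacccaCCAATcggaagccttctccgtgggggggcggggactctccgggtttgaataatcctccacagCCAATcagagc

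Both strands were searched for 6 motifs, whose matches may overlap. The Hmgb3 stretch held 3 CCAAT boxes, at 94, 51 and 5 bases upstream of the start, and the Hmgb2 stretch held 4, at 243, 198, 73 and 11 bases upstream. Of 32851 promoter stretches of the same length, 33.8% held a CCAAT box and 2.79% held 3 or more. The cell cycle homology region element, searched as TTTGAA, matched 1 time in Hmgb3 and 2 times in Hmgb2, and 16% of promoters held it. The GC box, searched as GGGCGG, matched 1 time in each, and 32.7% of promoters held it. The TATA box, searched as TATAAA, was in neither and in 12.4% of promoters. An E2F-like motif, searched as TTTNNCGC, was in neither and in 4.28%. An ETS-like motif, searched as CCGGAAG, was in neither and in 6.91%. Among the other members, 1 of the Hmgb1 promoters held 3 CCAAT boxes, Hmgn1 and Hmgn5 held 2 each, and Hmgn2, Hmga1 and Hmga2 held none. These are letter matches only. Promoters of 8 of the 9 members were matched, all but Hmgn3.

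Between PND 5 and 12 months, 8 of the 9 members fell and Hmga1 did not pass the test. The falls were steepest for Hmgb3, Hmgb2 and Hmgn2. Age altered much of the transcriptome: 85.2% of the genes tested were called (limma, Benjamini-Hochberg adjusted p under 0.05), and 41.7% were called lower. The median difference of the members was -0.61 and that of all genes 0.017.

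Hmgb3 had an adjusted level of 15.55 to 16.18 (median 15.80) in the 44 PND 5 libraries and of 13.05 to 13.80 (median 13.57) in the 38 libraries of 12 months. In adjusted levels the ages were far apart, with every PND 5 library above every older one. The deposited values of the ages overlapped: in DM-exposed WT they reached down to 14.00 at PND 5 and up to 14.93 at 12 months. The difference was -2.35 (SE 0.036, limma adjusted p = 5.3e-66), a ratio of 5.09, and 3.14% of genes changed by more. Hmgb2, the HMGB protein best known from dividing cells, went from 12.93 to 13.90 (median 13.35) down to 10.42 to 11.99 (median 11.19), a difference of -2.21 (SE 0.094, adjusted p = 1.09e-35, limma). The adjusted levels of the ages did not overlap for this gene either. Hmgb1, the most widely expressed HMGB protein and an extracellular alarm signal when released, fell less, from 14.27 to 14.73 (median 14.52) down to 13.26 to 13.78 (median 13.54), a difference of -0.98 (SE 0.040, limma adjusted p = 7.36e-37).

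Among the nucleosome-binding HMGN genes, Hmgn2 went from a median of 14.77 (14.62 to 15.17) to 13.16 (12.76 to 13.62), a difference of -1.63 (SE 0.059, limma adjusted p = 5.8e-40) with no overlap of the ages. Hmgn1 fell by 0.61 (SE 0.063), Hmgn3 by 0.60 (SE 0.049) and Hmgn5 by 0.44 (SE 0.061), each with overlapping ages and a limma adjusted p of at most 5.95e-10. The adjusted levels of the ages did not overlap for Hmgb1, Hmgb2, Hmgb3 and Hmgn2, 4 of the 9 members, against 35.4% of all genes. The HMGA genes were the weakest. Hmga2 fell by 0.41 (SE 0.092, limma adjusted p = 3.57e-05) from a level near the bottom of the table, 4.77 to 6.15 (median 5.72) at PND 5 and 4.70 to 5.59 (median 5.31) at 12 months. Hmga1 had medians of 8.72 and 8.79 (difference 0.07, 95% interval -0.03 to 0.18, limma adjusted p = 0.20).

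**Figure D1:**
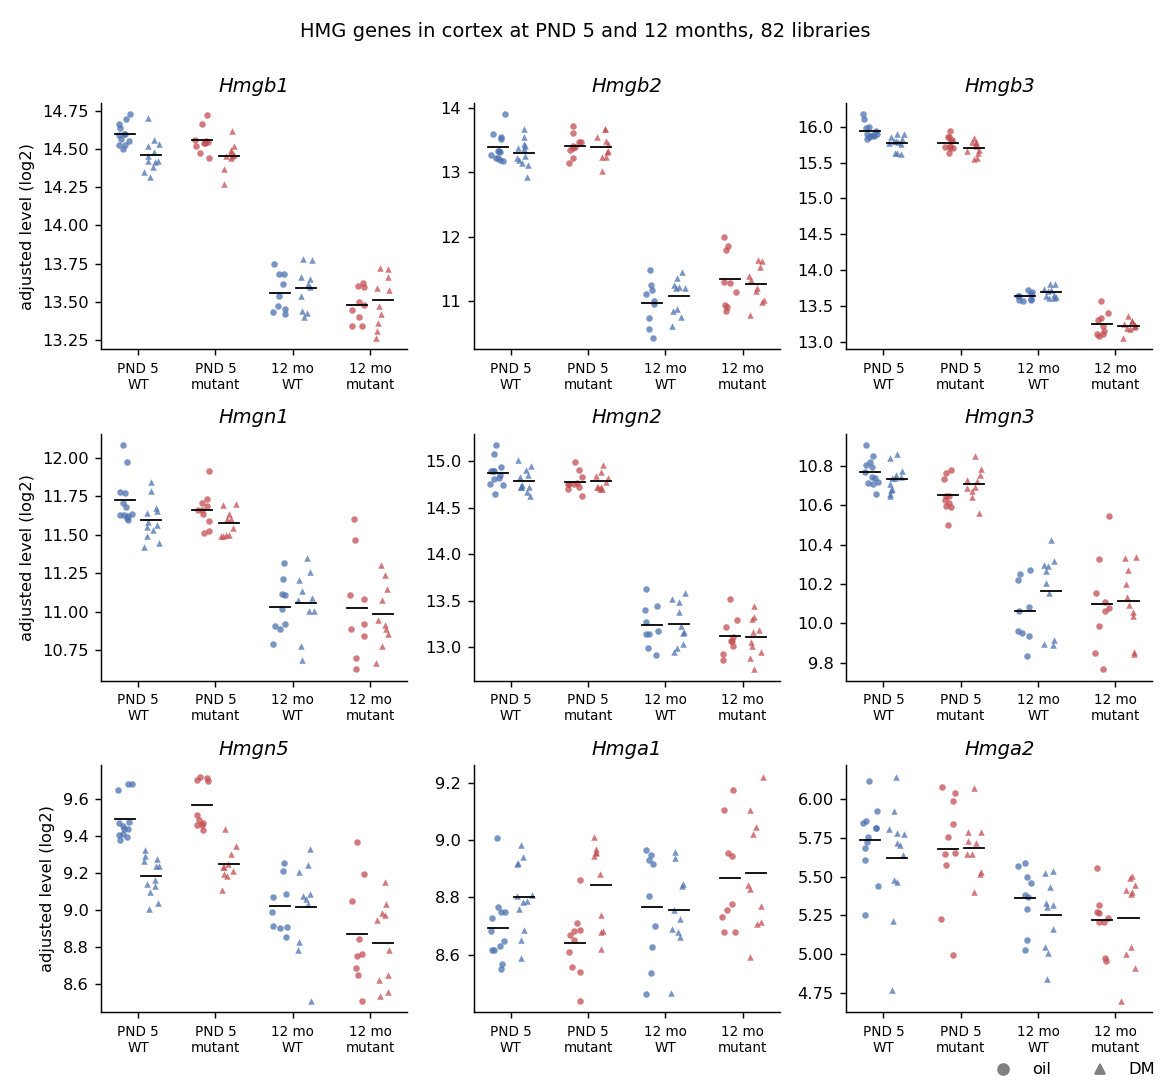
Adjusted level (log2, y axis) of each HMG gene in the 82 libraries of PND 5 and 12 months, 1 panel per gene, by age and genotype (x axis), with circles for oil, triangles for DM and horizontal lines for group means. Hmgb3 lies at 15.55 to 16.18 at PND 5 and at 13.05 to 13.80 at 12 months, while the Hmga1 medians are 8.72 and 8.79.

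Dissector, sex and batch composition differ between the ages. In the males collected by dissector 2 alone (50 libraries) the same 8 members fell as well. Over the 16 alternatives, that one included, the difference of Hmgb3 ran from -2.435 to -0.91. The differences of adjusted levels, which carry the fitted terms, were also taken within each of the 3 batches that held both ages. That leaves sex and dissector unequal. Hmgb3 differed by -2.28, -2.42 and -2.39 in batches 1, 2 and 3, and Hmgb2 by -1.79, -2.56 and -2.43. Hmga1 differed by 0.22, -0.08 and 0.02. Quantile normalization of the deposited values turned Hmgb1 from a fall into a rise of 0.12 (limma adjusted p = 0.014), so the direction of Hmgb1 depends on the scaling. The same scaling reduced the falls of Hmgb3 to -0.91, Hmgb2 to -1.47, Hmgn2 to -0.47, Hmgn1 to -0.20 and Hmgn3 to -0.37, and enlarged that of Hmga2 to -0.72. Leaving out the technical terms gave -1.005 for Hmgb3, -0.95 for Hmgb2, -0.70 for Hmgn2, -0.41 for Hmgb1, -0.26 for Hmgn1 and for Hmgn3, -0.16 for Hmgn5 and -0.17 for Hmga2, and all of these values passed the test (limma). Without batch 3 Hmgn5 no longer passed the test (-0.20, adjusted p = 0.093).

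Genes of other listed families were read beside these falls. All 18 listed genes of proliferating cells fell (median -2.66), including Top2a, a DNA topoisomerase of dividing cells (-4.77), Mki67, the Ki-67 antigen (-4.64), and Cenpf, a kinetochore protein (-3.69). Of 12 genes of neural progenitors and immature neurons, 10 fell (median -1.40), among them Dcx, a microtubule protein of migrating neurons (-5.30). The summed level of the proliferating list, as the mean deviation from each gene's average, was 1.03 to 1.35 in the PND 5 libraries and -1.54 to -1.23 at 12 months. Its part in the HMG falls was not tested, and in bulk tissue fewer cells of a type cannot be told apart from less RNA per cell. All 7 listed genes of mature oligodendrocytes rose (median 5.39), as did all 6 of microglia (median 1.85).

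Of 25 other abundant chromatin proteins and histone chaperones, 19 fell and 3 rose (median -0.63). The largest falls were Nasp, a histone chaperone (-2.84), Chaf1b, a subunit of the CAF-1 histone deposition complex (-2.35), and H3f3a, which encodes histone H3.3 (-1.39). Other genes with an HMG box were more mixed, with 12 falls and 7 rises among 21: Smarce1 (-1.32) and Pbrm1 (-0.97), both subunits of SWI/SNF complexes, fell, and Bbx rose (1.62). The SOX genes, whose HMG box reads specific sequence, had 9 falls and 6 rises among 17, led by Sox11 (-4.01), Sox4 (-3.65) and Sox12 (-2.79). In the Lin28 and let-7 axis that controls Hmga2, 6 of 8 genes fell and 1 rose, with Igf2bp3 at -3.34, Igf2bp2 at -2.51 and Igf2bp1 at -2.43, RNA-binding proteins of fetal tissue. Of 10 receptors and partners of extracellular HMGB1, 7 rose and 3 fell, with Cd24a at -6.83, Cxcr4 at -2.77 and Havcr2 at 1.81. Of 3 linker histone genes tested, H1fx fell (-0.37) and H1f0 rose (0.17). Sox4 and Sox11 are also on the progenitor list.

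The genotype comparisons ask how the HMG genes respond to loss of one functional Chd8 copy. At PND 5 after oil, Hmgb3 was the member that lay lowest in mutants. Its adjusted level was 15.83 to 16.18 (median 15.90) in the 12 WT and 15.63 to 15.95 (median 15.76) in the 10 mutants, so the groups overlapped with mutants shifted down. The difference was -0.17 (SE 0.045) with a limma adjusted p of 0.081 and an unadjusted p of 0.000387. No member passed the test across all genes (limma), and 0.352% of all genes were called. An unadjusted p under 0.05 was found for 1 member and for 1073 of the 16764 genes tested. With litter as a block, which compares littermates, the Hmgb3 difference of -0.16 did pass (limma adjusted p = 0.0125). That setting called 187 of the 16764 genes tested, against 59 in the main fit. Hmgn3 was next (-0.12, SE 0.062, limma adjusted p = 0.82). The median member difference was -0.06 against -0.0017 for all genes. All 18 listed ribosomal protein genes lay lower in the same contrast (median -0.08) with none called, and their part in the Hmgb3 difference was not tested.

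At PND 5 after DM the Hmgb3 level was 15.62 to 15.91 (median 15.79) in the 12 libraries labelled WT and 15.55 to 15.84 (median 15.70) in the 10 labelled mutant. The difference was -0.08 (SE 0.045), no member had an unadjusted p under 0.05 in limma, and 0.0895% of all genes were called. Without the female pair of litter B, whose Chd8 levels go against their labels, the difference was -0.10 (SE 0.047, limma adjusted p = 0.74). With litter as a block and without that pair it was -0.15 and passed (limma adjusted p = 0.031). That setting called 130 of the 16764 genes tested, against 15 in the main fit, and the pair was left out after seeing the data. The oil and DM differences of Hmgb3 were 0.09 apart (95% interval -0.04 to 0.21), or 0.07 (SE 0.064) without that pair, which did not pass the interaction test (limma adjusted p = 1.00), nor did any other member (unadjusted count 0 of 9, 0% of all genes called).

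Same-sex littermates share every term removed by the authors, so their difference is free of that step. Hmgb3 was lower in the mutant of 18 of 19 PND 5 pairs, from -0.25 to 0.13 with a median of -0.13. The males were lower in 10 of 10 pairs (mean -0.12) and the females in 8 of 9 (mean -0.13). The only pair with a higher value in the library labelled mutant was the litter B female pair (0.13), the pair in which Chd8 was also reversed. Without it, Hmgb3 was lower in 18 of 18 pairs and in 13 of 13 litters, which held for 0.602% of all genes. With it, Hmgb3 was lower in 12 of 13 litters, and 1.82% of genes were lower in at least as many. Within the oil-exposed litters alone, Hmgb3 and Hmgn3 were lower in 6 of 6, as 3.84% of genes were. Hmgb2 leaned the other way, higher in 16 of 19 pairs (median 0.11, range -0.18 to 0.52) and in 15 of 18 without the litter B females, with fitted differences of 0.03 (SE 0.12) after oil and 0.09 (SE 0.12) after DM that did not pass the test (limma adjusted p = 1.00 for each).

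**Figure D2:**
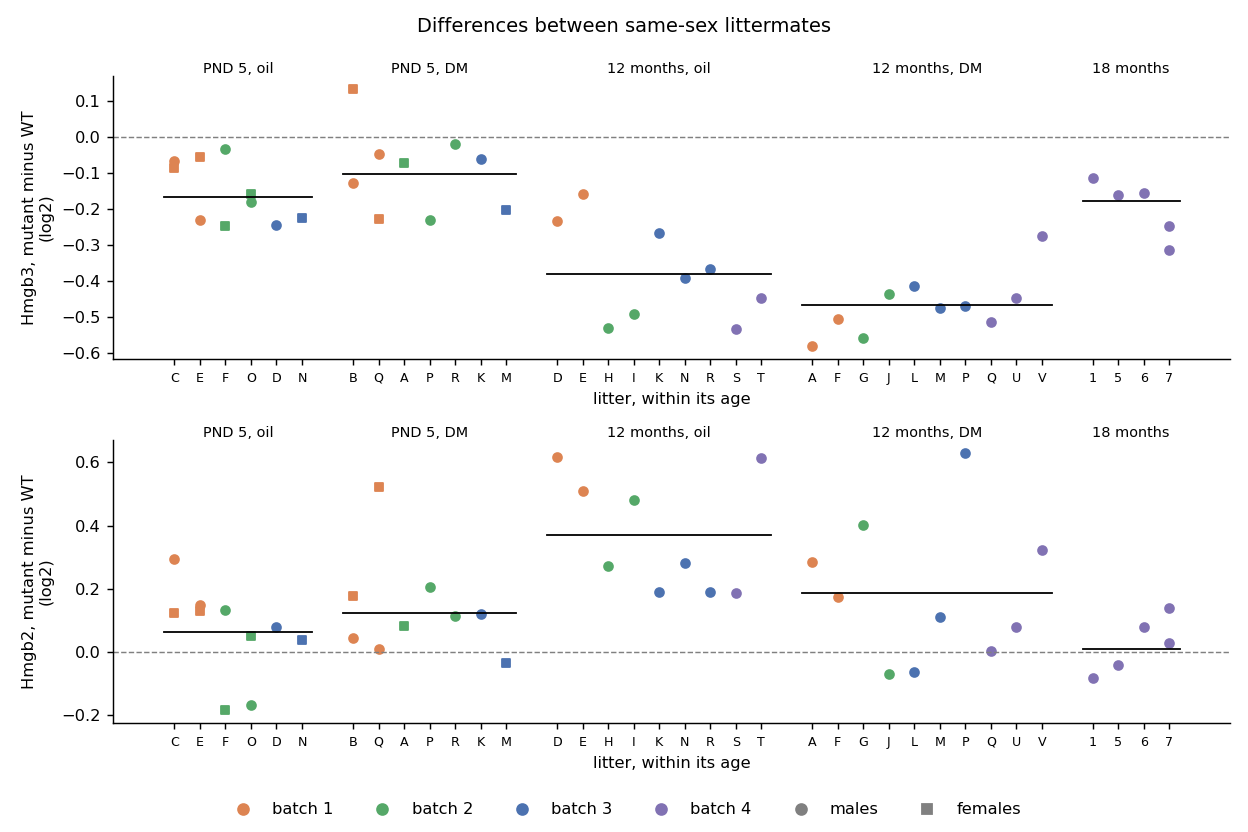
Mutant minus WT (log2, y axis) of Hmgb3 (top) and Hmgb2 (bottom) in each same-sex littermate pair, by litter (x axis), age and exposure, with colours for batches, circles for males, squares for females and horizontal lines for the mean over litters. Hmgb3 lies below 0 in every pair except the litter B females of PND 5 (0.13), the pair in which Chd8 was reversed.

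At 12 months, the age at which Hmgb3 was among the genes lowered most, it was lower in every mutant than in its WT littermate. After oil it was 13.57 to 13.73 (median 13.63) in the 9 WT and 13.09 to 13.57 (median 13.22) in the 9 mutants, with the lowest WT and the highest mutant almost level. After DM it was 13.60 to 13.80 (median 13.68) in the 10 WT and 13.05 to 13.35 (median 13.22) in the 10 mutants, with a clear gap. The adjusted levels of the groups did not overlap in either exposure, as for 0.0418% of all genes after oil and 0.0537% after DM. The differences were -0.38 (SE 0.049) and -0.47 (SE 0.046), ratios of 1.30 and 1.38, and 0.34% and 0.107% of genes differed by more. By litter they ran from -0.53 to -0.16 over 9 oil litters and from -0.58 to -0.28 over 10 DM litters. All 19 litters were lower, as for 0.316% of all genes, 1.83% in the oil litters and 1.69% in the DM litters.

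Hmgb2, the close relative of Hmgb3, lay on the other side. Its level was 10.42 to 11.48 (median 11.00) in oil-exposed WT and 10.84 to 11.99 (median 11.28) in mutants, overlapping broadly, yet it was higher in the mutant of 9 of 9 litters (0.19 to 0.62), as for 0.698% of all genes. The fitted difference was 0.37 (SE 0.13). After DM it was 10.62 to 11.46 (median 11.20) in WT and 10.78 to 11.64 (median 11.27) in mutants, a difference of 0.19 (SE 0.12), higher in 8 of 10 litters. It was higher in 17 of the 19 litters, and 1.66% of genes were higher in at least as many.

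Of the other members at 12 months, Hmgb1 was lower in 16 of 19 litters, by 0.08 in each exposure (SE 0.055 and 0.052). Hmgn2 was lower in 16 of 19, with differences of -0.11 (SE 0.081) after oil and -0.14 (SE 0.077) after DM. Hmgn5 was lower in 15 of 19, with -0.15 (SE 0.083) and -0.19 (SE 0.079). Hmga1 was higher in 13 of 19, with 0.10 (SE 0.074) and 0.13 (SE 0.070). Hmgn1, Hmgn3 and Hmga2 had differences from -0.14 to 0.03 with SE from 0.064 to 0.13. The member median was -0.08 in both exposures, against -0.0048 and -0.012 for all genes.

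The oil-exposed litters D and E of batch 1 stood apart at 12 months. The listed ribosomal protein genes were on average 0.71 higher in their mutants, against -0.11 to -0.04 in the oil litters of batches 2 to 4. The astrocyte markers were 0.48 higher on average (0.46 and 0.49), against 0.0092 to 0.035 in batches 2 to 4, the microglia markers 0.17 higher, against -0.07 to -0.04, and the SOX genes 0.17 higher, against -0.04 to 0.05. The choroid plexus markers were lower on average (-0.81), but the litters disagreed, at -2.27 and 0.64. In these litters Hmgn1 (0.37), Hmgn3 (0.27), Hmgn5 (0.16), Hmga1 (0.41) and Hmgb2 (0.56) were higher in mutants on average and Hmgb3 was lower by less (-0.20). Across the 7 other oil litters Hmgb3 was -0.43 on average, Hmgn5 -0.24 and lower in 7 of 7, Hmgb2 0.32 and higher in 7 of 7, and Hmga1 0.01. In those litters 3.66% of all genes were lower in all 7 and 1.52% higher. The part of the ribosomal, astrocyte, microglia and choroid plexus differences in these values was not tested. The proliferating-cell list differed by -0.11 to 0.13 between mutants and WT in the oil-exposed 12 month batches, and its part was not tested.

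For comparison, among the 25 other abundant chromatin proteins 3 were called lower and 0 higher in oil-exposed 12 month old mutants (limma, 0.823% of all genes called) and 7 lower and 0 higher in DM-exposed mutants (2.09%), with medians of -0.06 and -0.10. At PND 5 after oil 1 of the 25 was called, Anp32a, an acidic histone-binding protein (-0.18, SE 0.036, limma adjusted p = 0.00362). Among 21 other HMG-box genes, 0 were called after oil and 1 was called higher after DM at 12 months.

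After oil, the genotype difference of Hmgb3 was 0.21 lower at 12 months than at PND 5 (SE 0.066, 95% interval -0.35 to -0.08), and that of Hmgb2 was 0.34 higher (SE 0.17, 95% interval -0.0034 to 0.69). Over the alternatives these ran from -0.28 to -0.09 for Hmgb3 and from 0.21 to 0.46 for Hmgb2. They use the 12 month contrast and are descriptions.

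**Figure D3:**
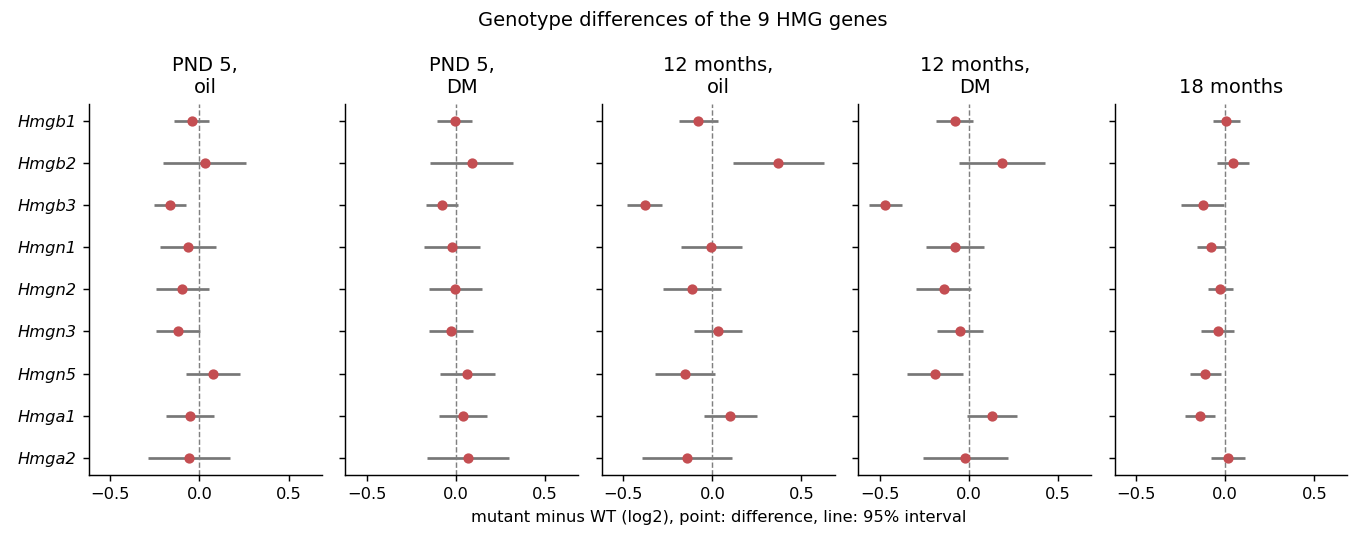
Mutant minus WT (log2, x axis) of each HMG gene (y axis) in the 5 genotype comparisons, with points for the fitted difference and lines for its 95% interval. Hmgb3 is at -0.17 and -0.08 at PND 5 and at -0.38 and -0.47 at 12 months, and Hmgb2 is at 0.37 after oil at 12 months.

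The 18 month old mice were untreated and came from a separate table. Hmga1, Hmgb3, Hmgn5 and Hmgn1 lay lower in mutants, but no member passed the test across all genes (limma), and 0.13% of all genes were called. An unadjusted p under 0.05 was found for these 4 members and for 2063 of the 16951 genes tested. Hmga1 had adjusted levels of 9.38, 9.30, 9.27, 9.27, 9.23 and 9.27 in the 6 WT and of 9.05, 9.10, 9.19, 9.16 and 9.21 in the 5 mutants. All WT were above all mutants, which held for 2.35% of all genes. The difference was -0.14 (SE 0.040, unadjusted p = 0.00275, limma adjusted p = 0.17).

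Hmgb3 had levels of 9.40, 9.37, 9.59, 9.37, 9.52 and 9.45 in the WT and of 9.29, 9.48, 9.43, 9.22 and 9.21 in the mutants. Of these mutants 3 lay below all WT and 2 lay among them. The difference was -0.13 (SE 0.057, limma adjusted p = 0.39), and 3.46% of genes differed by more. It was lower in the mutant of 4 of 4 litters with both genotypes (-0.28 to -0.11). Hmgn5 differed by -0.11 (SE 0.041, limma adjusted p = 0.30) and Hmgn1 by -0.08 (SE 0.036, limma adjusted p = 0.39). Averaged over its pairs, each of the 4 such litters was lower in mutants for Hmgb3, Hmgn1, Hmgn3, Hmgn5 and Hmga1. These were 5 of 9 members, against 10.3% of all genes. In litter 7 the Hmgn1 difference was 0.02 against 1 WT littermate and -0.04 against the other. Hmgb2 was at 0.04 (SE 0.042, 95% interval -0.05 to 0.13), from levels of 8.13 to 8.34 in a table whose floor is 7.2, and Hmgb1 was at 0.01 (SE 0.035). The sign of Hmga1 at 18 months was opposite to that at 12 months, in different tables of mice with different exposure histories, and that contrast was not tested.

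**Figure D4:**
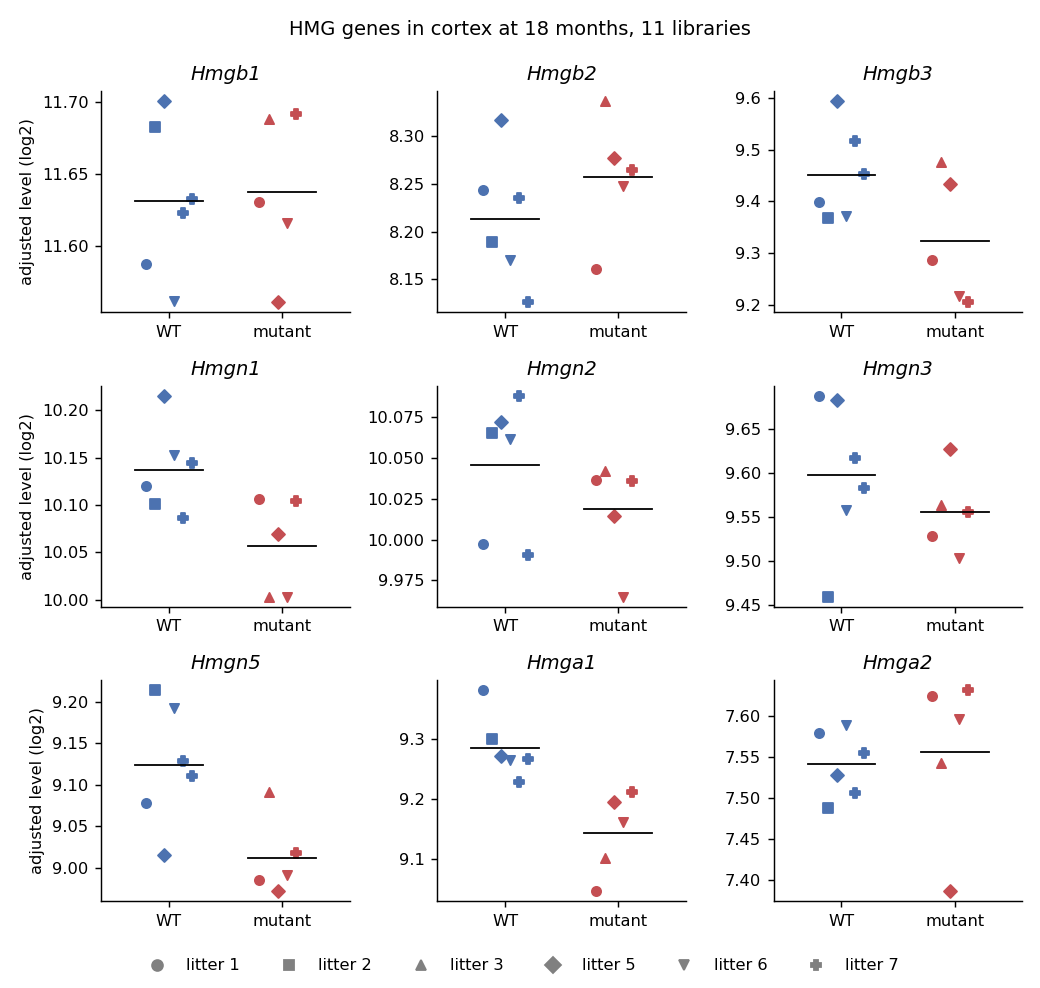
Adjusted level (log2, y axis) of each HMG gene in the 6 WT and 5 mutant libraries of 18 months (x axis), with a marker shape for each litter and horizontal lines for group means. For Hmga1 every mutant (9.05 to 9.21) lies below every WT (9.23 to 9.38), and for Hmgb3 the mutants (9.21 to 9.48) overlap the WT (9.37 to 9.59).

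The exposure comparisons ask whether DM given to the dams altered HMG expression. At PND 5 Hmgn5 and Hmgb3 were lower in DM-exposed than in oil-exposed WT. Of the members 2 were called, both lower, against 4.12% of all genes called and 1.04% called lower. The dam was exposed, so the litter is the exposed unit, and with litter as a block no gene passed in this comparison. Hmgn5, an X-linked HMGN protein with a long acidic tail, was 9.37 to 9.68 (median 9.45) in the 12 oil-exposed WT and 9.00 to 9.32 (median 9.20) in the 12 DM-exposed WT. The adjusted levels of the groups did not overlap, which held for 0.0418% of all genes. The difference was -0.31 (SE 0.075, limma adjusted p = 0.013), and 2.38% of genes changed by more. Hmgb3 went from 15.83 to 16.18 (median 15.90) after oil to 15.62 to 15.91 (median 15.79) after DM, a difference of -0.17 (SE 0.044, limma adjusted p = 0.019) with overlapping groups. Without the female pair of litter B it was -0.15 (SE 0.046, limma adjusted p = 0.048). Hmgb1 was at -0.14 (SE 0.049, limma adjusted p = 0.096). Dissector and litter number, both among the technical terms, were not balanced between the exposures at PND 5. Without technical terms Hmgb1 turned to 0.04 and Hmgb3 to 0.25, neither of them called. The direction of both therefore depends on that adjustment. The deposited means of Hmgb3 in WT were 15.18 after oil and 15.43 after DM. Hmgn5 in WT stayed lower after DM over the alternatives, from -0.33 to -0.20.

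In mutants Hmgn5 was 9.43 to 9.72 (median 9.50) in the 10 oil-exposed pups and 9.10 to 9.44 (median 9.23) in the 10 DM-exposed pups, touching at the edge. The difference was -0.32 (SE 0.083, limma adjusted p = 0.045), the only member called, against 0.71% of all genes called and 0.149% called lower. Without the female pair of litter B it was -0.31 and no longer passed (limma adjusted p = 0.093), while in WT it was -0.32 and passed (limma adjusted p = 0.016). Hmgb3 in mutants was at -0.08 (SE 0.048, limma adjusted p = 0.48) and Hmga1 at 0.20 (SE 0.073, limma adjusted p = 0.15). The WT and mutant effects were not shown to differ, as the interaction above gives.

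The litters numbered 6 with oil and 7 with DM. With litter as a block (consensus correlation 0.392) no gene at all passed in WT or in mutants: the limma adjusted p was 0.25 for Hmgn5 and 0.28 for Hmgb3 in WT and 0.34 for Hmgn5 in mutants. The mean Hmgn5 level by litter was 9.40 to 9.58 in oil-exposed WT and 9.14 to 9.27 in DM-exposed WT, and 9.48 to 9.72 and 9.10 to 9.44 in mutants. Litter means of the exposures were apart in both genotypes, as for 0.107% of all genes (0.972% in WT and 1.03% in mutants). Differences of adjusted levels were also taken within batches 1, 2 and 3. For Hmgn5 they were -0.23, -0.34 and -0.34 in WT and -0.35, -0.33 and -0.24 in mutants. Those of Hmgb3 in WT were -0.16, -0.15 and -0.19. All of these carry the fitted dissector and litter number terms, so the batches do not check that adjustment.

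**Figure D5:**
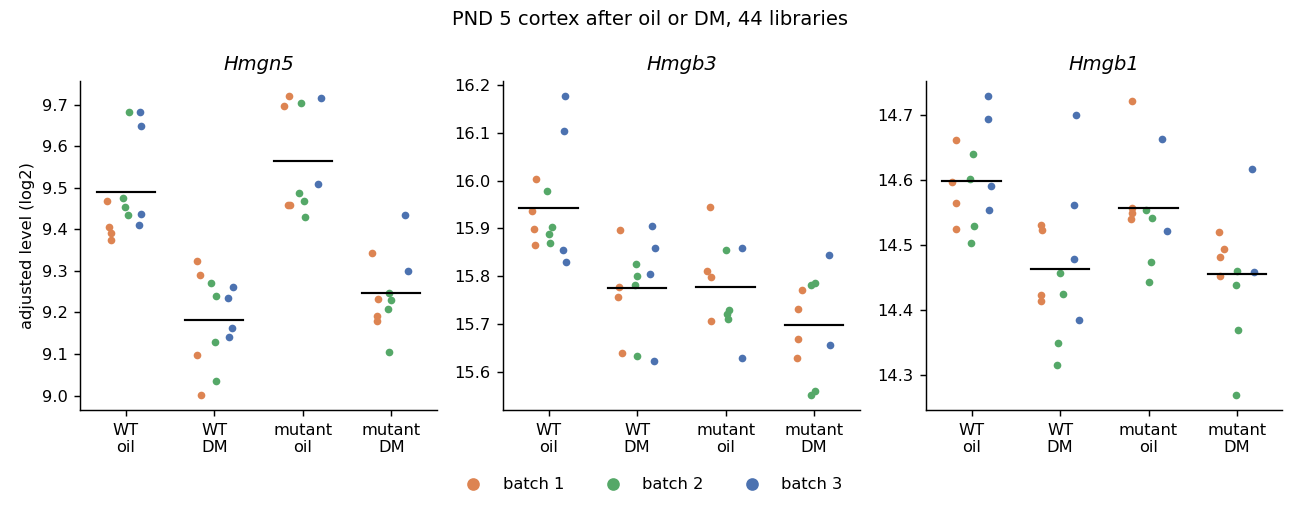
Adjusted level (log2, y axis) of Hmgn5, Hmgb3 and Hmgb1 in the 44 PND 5 libraries by genotype and exposure (x axis), with colours for the 3 batches and horizontal lines for group means. Hmgn5 lies at 9.00 to 9.32 in DM-exposed WT and at 9.37 to 9.68 in oil-exposed WT, and no gene passed when litter was a block.

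Other genes moved in the same WT contrast. Of 25 other abundant chromatin proteins 6 were called lower and 0 higher, against 1.04% of all genes called lower, and none of the calls named here was kept with litter as a block. Among the 6 were Ptma, prothymosin alpha (-0.23), Cbx3, a heterochromatin protein HP1 (-0.17), and Nasp (-0.17). In mutants 1 was called, Set, a histone chaperone (-0.17). Among cell type markers in mutants, Emx1 (0.38) was the only call of the 8 cortical excitatory neuron markers. Slc32a1 (0.46) was the only call of the 8 inhibitory neuron markers. Both were higher after DM. The summed level of the excitatory list had a median of 0.055 in oil-exposed and 0.061 in DM-exposed mutants, so the list as a whole hardly moved. That of the inhibitory list had medians of -0.74 and -0.59. Of the other HMG-box genes, Smarce1 was lower (-0.13) and Cic, a transcriptional repressor, was higher (0.18) in WT. Thbd, thrombomodulin (0.78), and Cxcl12, a chemokine that binds HMGB1 (0.40), were higher among the HMGB1 partners. Markers of several cell types were also called higher in DM-exposed WT. Of 6 endothelial markers 2 were called, Cdh5 (0.39) and Cldn5 (0.31), and all 6 lay higher. Of 6 microglia markers 2 were called, Tmem119 (0.31) and Csf1r (0.30), and 5 lay higher. Of 8 markers of inhibitory neurons 2 were called, Slc32a1 (0.38) and Sst (0.28), and 5 lay higher. Of 6 astrocyte markers 1 was called, Gfap (0.41), and 4 lay higher. Of 7 markers of mature oligodendrocytes 1 was called, Cldn11 (0.85), of 6 choroid plexus markers 1 was called, Kcnj13 (0.82), and of 8 markers of cortical excitatory neurons 0 were called. None of the 18 proliferating-cell genes was called (14 lower, median -0.07), and all 18 ribosomal protein genes lay lower with none called (median -0.15). Their part in the Hmgn5 and Hmgb3 differences was not tested.

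By 12 months no member differed between exposures in either genotype (limma, 0 of 9 with an unadjusted p under 0.05 in each, with 0% of genes called in WT and 0.00597% in mutants). Hmgn5 was at -0.01 (95% interval -0.17 to 0.16) in WT and -0.04 (95% interval -0.21 to 0.12) in mutants, and Hmgb3 at 0.06 (95% interval -0.04 to 0.15) and -0.03 (95% interval -0.12 to 0.07). Both comparisons share their mice with the 12 month genotype contrasts.

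Most member pairs varied together across libraries once group means were removed. How often other gene pairs do so was not computed, so this is not shown to be particular to HMG genes. Over the 82 libraries, which share batches and litters, the residual levels of 28 of the 36 member pairs correlated above 0 (median r 0.57), most for Hmgb1 and Hmgn2 (r = 0.83), Hmgb2 and Hmgn2 (r = 0.82) and Hmgn1 and Hmgn2 (r = 0.81). The 8 pairs below 0 all involved Hmga2, down to -0.34 with Hmgb2. The genes most like Hmgb3 by the same measure were Npm1, the nucleolar histone chaperone nucleophosmin (r = 0.72, rho = 0.69), Gm5643 (r = 0.69, rho = 0.68), Snrpd3, a core spliceosome protein (r = 0.69, rho = 0.66), Srsf3, a splicing factor (r = 0.69, rho = 0.66), and Rps15a, a ribosomal protein (r = 0.68, rho = 0.63). Hmgb3 was among the less variable genes, with a residual SD of 0.10 that 17.1% of genes were below, while Hmgb2 had 0.27.

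HMG genes have many processed copies in the mouse genome, and reads from them can be assigned to either. Of the 31-base words in their annotated transcripts, 33% for Hmgb3 were shared with other genes, 23% for Hmgb1, 21.4% for Hmgb2, 29.8% for Hmgn2, 23.5% for Hmgn5 and 62.1% for Hmga1. Hmgn1 (6.09%), Hmga2 (2.26%) and Hmgn3 (0.0499%) shared least. Levels of the genes with high shares may be less certain, but the shares do not measure that error, which was not estimated.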

How the data were processed

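Libraries were polyA-selected, stranded and sequenced as paired-end reads. Per the study's methods, the authors trimmed reads (cutadapt 1.12), aligned them to mm10 (STAR 2.5.2b), quantified transcripts with Salmon, and applied the DESeq2 variance-stabilizing transformation and a limma batch correction. The deposited values are therefore on a log2 scale, with no counts, so depth is unknown. Regressed on the numbers for batch, sex, dissector and litter, all genes of the 82-library table had slopes of 0 (in the 18 month table of 11 libraries, on litter rank), so these terms had been removed. With age added, slopes reached 5.995, so the same terms were refitted together with the groups in limma 3.58.1 (R 4.3.3, empirical Bayes with trend, Benjamini-Hochberg adjustment over all genes tested, threshold 0.05), which makes group differences independent of the removal. This was tested on simulated data. Genes were tested if at most 1 littermate pair was tied (tolerance 1e-06) at either age, or at 18 months. No pseudocount was used.

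Groups came from the labels. The members and gene lists were chosen with earlier results of these data known. Besides the 9 members, the genes named were up to 3 called genes with the largest difference per list in each tested comparison, the 5 genes most like Hmgb3, and Chd8. Littermates are paired by the labels: the residuals of 74 littermate pairs of libraries had a median correlation of 0.16, against -0.014 for other pairs. Litters were fitted as fixed blocks for genotype and with limma's duplicate correlation (statmod 1.5.0) for age and exposure. Each library came from a separate animal. Alternatives changed the filter, scaling, covariates, trend, weights, block, batches, sexes and single 18 month libraries. Leaving out the female pair of PND 5 litter B was chosen after seeing the data. GENCODE M21 (mm10) gave the gene positions and RefSeq (GRCm38.p6) the promoter sequences.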

Additional observations from a re-analysis of the deposited data

Results flagged for a closer look

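In groups of 4 to 10 litters, 1 litter stood far from the others of its group for 4 of the 117 gene and group combinations examined, where chance flags about 1 in 20. Hmgb1 was -0.1074 (mutant minus WT, log2) in the oil-exposed PND 5 litter F, against -0.032 in the nearest of 6 litters. Hmgb1 was -0.1395 in the 18 month litter 5, against 0.0432 in the nearest of 4. Hmgn3 was -0.1598 in the 18 month litter 1, against -0.0555 in the nearest of 4. Hmga2, a gene near the bottom of the table, was 0.2995 in the DM-exposed PND 5 litter M, against -0.049 in the nearest of 7.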

How the results depend on the processing

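Over 40 results and 663 alternative values, 598 were counted as the same, 13 newly passed, 24 no longer passed, 26 moved and 2 reversed. Tested values were the same if they stayed on their side of the threshold, and counts of called members if equal or close. Untested values of Hmgb3 were the same within the spread between litters. For other members without a test, only a change of sign from a difference large against its SE was counted as a reversal. The genotype by age value of Hmgn2, from -0.08 to 0.07, therefore counted as the same. Reversed were Hmgb1 with age under quantile normalization (0.12) and Hmgb3 in DM-exposed against oil-exposed PND 5 WT without technical terms (0.25, limma adjusted p = 0.58). The age fall of Hmgb3 was -0.91 under quantile normalization and -1.005 without technical terms. Both alternatives act on values from which the authors removed terms without keeping age.

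For genotype at PND 5 after oil, the count of members called went from 0 to 1 (Hmgb3) with each age fitted on its own, with sample weights, with the replicate block, and with the block without the female pair of litter B. After DM it went from 0 to 1 with that block without that pair. For DM against oil at PND 5 in WT, 2 members were called and the count became 4 with sample weights, 1 under quantile normalization or with males only, and 0 without technical terms, with the replicate block (with or without the litter B pair), without batch 2, without batch 3 and with females only. In mutants, 1 was called and the count became 2 with each age on its own or with sample weights, and 0 with no filter, under quantile normalization, without technical terms, with the block (with or without the pair), without the pair alone, without batch 1, without batch 2, with males only and with females only. The block changed no other member's call. At 18 months leaving out each library gave 0 to 0 members called.

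At 12 months Hmgb3 ranged from -0.44 to -0.34 after oil and from -0.49 to -0.45 after DM. The number of all genes called varied widely: 59 became 1 to 224 (PND 5 genotype, oil), 15 became 0 to 130 (DM), 138 became 1 to 2243 and 350 became 42 to 2191 (12 months, oil and DM, highest with the block), 690 and 119 became 0 to 3104 and 0 to 1363 (DM against oil in WT and mutants), and 22 became 3 to 88 (18 months). Under median centring the percentage of calls that were higher moved from 38.4 to 26.2 and from 53.4 to 38.8 at 12 months after oil and DM, and from 79 to 63.6 for DM against oil in mutants, which was 92.9 under quantile normalization.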

Other observations

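Other rows of the tables carry names of copies or relatives of the members. Hmga2-ps1 passed the filter and was 0.70 (SE 0.075) higher at 12 months than at PND 5, whereas Hmga2 fell by 0.41. Hmgb4 and Hmgb1-rs17 did not pass the filter.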
